A study of Mus musculus with 32 samples.

Results

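Regions of open chromatin at the ends of genes were described in haematopoietic stem and progenitor cells of the mouse. Of the 96960 autosomal regions in the deposited developmental count table, 16156 (16.7%) have a midpoint within 1 kb of either end of the span of a protein-coding gene (build mm10), and these are called gene-end regions here. They lie nearest to 12881 of 20665 autosomal protein-coding genes, and 2019 of them lie within 1 kb of 2 or more genes, so that a region named for a gene may serve its neighbour. The gene table gives strand for only some genes: 11079 gene-end regions lie nearest a gene start, 1696 nearest the other end, and 3381 nearest a gene whose strand is not in the table. The other autosomal regions comprise 43923 in gene bodies, 24754 between genes and 12127 with no gene within 50 kb.

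The study followed chromatin of these cells through blood development by ATAC-seq, which marks accessible DNA through adapters that Tn5 transposase leaves there. All libraries came from C57BL/6 mice and from cells labelled LSK, the usual name for lineage-negative, Sca-1-positive, Kit-positive cells of the blood-forming tissues; the labels name no treatment or engineered allele for them. The 9 groups are E12.5 PL (a tissue the labels do not spell out), E12.5 FL and E16.5 FL (fetal liver at these embryonic days), perinatal BM (bone marrow around birth) and BM at 1, 3, 4, 6 and 8 weeks of age, written 1w to 8w BM. Each has 3 libraries except 3w BM with 2, 26 in all. Whether a group's libraries stem from different animals is not in the labels. All p-values therefore rest on the spread among these libraries, which may be technical. The library 8w BM 3 bears the title of 8w BM but a stage label of E12.5, and was used under its title.

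The start of a gene holds its promoter, where RNA polymerase and general factors assemble, and promoters are among the most accessible sites of any cell. Promoters rich in the dinucleotide CpG are often open in many cell types, also where the gene is not in strong use, whereas CpG-poor promoters and distal enhancers vary more between cell types. The far end of a gene, where transcripts are cut and polyadenylated, has no such constant assembly site, and an accessible site there may be an enhancer or the promoter of a neighbour.

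Promoter sequences from RefSeq (build GRCm38.p6, 250 bases before to 50 after each start) were matched by symbol to 9192 genes with a gene-end region at their start. 6 are printed, 5′ to 3′ on the strand of the gene, because they belong to regions on which the results below turn: Traf3ip3 (chr1:193201497-193201796, minus strand) and Runx3 (chr4:135120395-135120694, plus strand), far more open in E12.5 FL than in E12.5 PL, Atf3 (chr1:191183284-191183583, minus strand) and Ptpn14 (chr1:189728018-189728317, plus strand), more open in E12.5 PL, Wfs1 (chr5:36988933-36989232, minus strand), which opened between E16.5 FL and perinatal BM, and Spred1 (chr2:117120821-117121120, plus strand), among the steadiest of all. Capitals mark matches, on either strand, to 12 short motifs searched.
Traf3ip3: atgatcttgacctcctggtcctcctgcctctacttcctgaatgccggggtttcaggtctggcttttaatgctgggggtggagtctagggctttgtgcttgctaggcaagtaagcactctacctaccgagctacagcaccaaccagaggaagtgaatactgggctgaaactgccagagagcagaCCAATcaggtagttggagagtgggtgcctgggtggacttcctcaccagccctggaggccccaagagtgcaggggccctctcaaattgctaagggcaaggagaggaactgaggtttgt
Runx3: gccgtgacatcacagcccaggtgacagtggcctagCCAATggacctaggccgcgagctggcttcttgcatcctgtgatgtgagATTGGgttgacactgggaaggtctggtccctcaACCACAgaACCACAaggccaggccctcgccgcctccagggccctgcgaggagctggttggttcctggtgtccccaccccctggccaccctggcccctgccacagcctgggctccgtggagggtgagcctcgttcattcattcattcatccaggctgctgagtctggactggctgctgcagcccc
Atf3: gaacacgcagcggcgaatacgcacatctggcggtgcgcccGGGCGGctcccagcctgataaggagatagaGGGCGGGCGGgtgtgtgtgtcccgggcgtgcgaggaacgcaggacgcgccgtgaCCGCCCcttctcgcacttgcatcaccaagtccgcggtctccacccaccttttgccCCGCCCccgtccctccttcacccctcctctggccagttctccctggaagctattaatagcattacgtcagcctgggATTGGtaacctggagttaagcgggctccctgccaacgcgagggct
Ptpn14: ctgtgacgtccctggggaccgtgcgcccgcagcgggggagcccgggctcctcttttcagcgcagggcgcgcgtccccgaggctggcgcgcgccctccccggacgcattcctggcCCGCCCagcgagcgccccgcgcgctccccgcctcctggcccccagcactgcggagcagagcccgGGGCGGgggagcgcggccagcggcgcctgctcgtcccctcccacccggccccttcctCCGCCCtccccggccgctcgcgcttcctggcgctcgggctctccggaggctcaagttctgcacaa
Wfs1: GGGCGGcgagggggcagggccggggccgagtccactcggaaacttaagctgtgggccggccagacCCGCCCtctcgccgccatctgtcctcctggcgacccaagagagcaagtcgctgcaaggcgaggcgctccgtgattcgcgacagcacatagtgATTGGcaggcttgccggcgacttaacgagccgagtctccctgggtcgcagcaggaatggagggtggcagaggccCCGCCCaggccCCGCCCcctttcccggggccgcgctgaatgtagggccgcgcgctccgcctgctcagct
Spred1: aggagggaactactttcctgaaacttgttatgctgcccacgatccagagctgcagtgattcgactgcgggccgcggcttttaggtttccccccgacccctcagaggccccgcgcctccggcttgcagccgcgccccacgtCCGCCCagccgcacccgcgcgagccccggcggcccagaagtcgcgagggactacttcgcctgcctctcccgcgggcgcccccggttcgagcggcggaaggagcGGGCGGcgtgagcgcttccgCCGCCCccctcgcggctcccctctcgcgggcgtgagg
The first pair is CpG-poor, with 1 CCAAT box in Traf3ip3, and 2 CCAAT boxes and 2 RUNX motifs in Runx3. The others are CpG-rich and carry between 3 and 5 GC boxes each. A promoter was called CpG-rich where the CpG count was at least 0.6 of that expected from its C and G and GC was at least 50%.

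The motifs were the CCAAT box CCAAT, the GC box GGGCGG of Sp and Klf factors, ETS CCGGAAG, CRE TGACGTCA, the E-box with letters CACGTG, the TATA box with letters TATAAA, AP-1 TGANTCA, that of GATA factors with letters AGATAA, RUNX TGTGGT, IRF GAAANNGAA, NRF1 GCGCATGCG and YY1 AAGATGGCG, each looked for on both strands without regard to overlap between motifs. Of all 32851 promoters in the table, 37.4% hold a CCAAT box, 35.7% a GC box and 16.8% a RUNX motif, so a single match is common. The promoters at gene-end regions differed from the table as a whole in makeup: 69.0% were CpG-rich against 33.5% of all promoters, 66.7% held a GC box, 16.7% an ETS motif against 8.86%, and 4.80% an AP-1 motif against 7.81%. These shares describe the sequences only, and a match is not evidence of binding.

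Total counts ran from 2845113 to 10167340 per library, and counts at gene ends from 1108821 to 4350720. The deposited peak lists, called per library, held 9134 to 22900 peaks in FL libraries, 24325 to 36431 in E12.5 PL and 23438 to 49622 in BM, and the median fold enrichment of peaks at gene ends was 5.33 to 6.49, 7.52 to 7.77 and 6.95 to 8.58. FL libraries thus had the fewest peaks, E16.5 FL 1 the fewest of all, and the lowest peaks at gene ends. Away from gene ends the median fold enrichment was 5.19 to 6.09 in FL, 5.62 to 5.98 in E12.5 PL and 5.93 to 6.83 in BM, so FL and PL overlapped there. The part of these differences in the comparisons with FL was not tested. Kit, the receptor that is part of the LSK definition, had a region 36 bp from its start that lay under a peak in all 26 libraries, with group means between 48.4 and 69.0 CPM (counts scaled to a common total, here that of the gene-end counts). Such a peak cannot check the label, since 27.9% of all gene-end regions lay under a peak in all 26 libraries. Ly6a, which encodes Sca-1, has no gene-end region here. In libraries of many cells, fewer cells with an open region and less opening per cell cannot be told apart.

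Gene-end regions lay under a peak in every library more often than other regions. A peak was called over 4514 of them (27.9%) in all 26 libraries, against 2.01% of gene-body and 1.46% of intergenic regions, and over none of the libraries for 6.24%. At gene starts 33.5% lay under a peak in every library, and at the other ends 2.54%. This measure is bounded by the shortest peak list, that of E16.5 FL 1 with 9134 peaks, and so favours strong regions. Of starts 46.6% fell in the highest of 10 level classes over all autosomal regions, and of other ends 6.54%. Peaks were not compared at matched level, so level and constancy were not separated. The share under a peak in every library fell steeply with distance. It went from 47.5% in the 200 bp before a start to 10.0% at 800 to 1000 bp after it and 6.56% at 800 to 1000 bp before it. Across the limit of the rule the change was small: a peak in all 26 libraries lay over 6.68% of the 1332 regions at 800 to 1000 bp from a gene end and over 5.29% of the 4630 regions at 1 to 2 kb, with median levels of 8.53 and 6.66 CPM of all counts.

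Over regions of all levels, those at gene ends varied less, both between libraries of a group and between groups. The median SD of log2 CPM within a group was 0.28 at gene ends, 0.26 at starts and 0.44 at other ends, against 0.48 in gene bodies. The median SD of the 9 group means was 0.33 at gene ends and 0.52 in gene bodies, and 0.27 and 0.39 without E12.5 PL. The classes differ in depth, since 39.7% of gene-end regions fell in the highest of 10 level classes of equal size over all autosomal regions. At matched level the SD of group means was lower at gene ends than in gene bodies in class 1 and in classes 6 to 10 but not in classes 2 to 5, with 0.30 against 0.37 in gene bodies in class 10 and 0.29 against 0.47 in class 9. It was 0.44 in both in class 5, and 0.59 against 0.52 in class 3. The SD within groups differed little at matched level, at 0.21 against 0.23 in class 10 and 0.48 in both in class 5. Libraries of a group had a median correlation of 0.947 over gene-end regions and 0.868 over gene-body regions. Between FL and PL at E12.5, correlations were 0.797 to 0.855 over gene ends and 0.245 to 0.429 over gene bodies, and between 8w BM and E12.5 FL 0.889 to 0.907 against 0.764 to 0.783. These correlations are over regions that share library depth, and are given as descriptions.

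The share of a library's autosomal counts that fell at gene ends separated the E12.5 PL, fetal liver and marrow libraries. It was 47.2, 44.8 and 43.9% in E12.5 PL, 38.9, 36.7 and 38.6% in E12.5 FL, and 33.8, 38.3 and 36.5% in E16.5 FL. In perinatal BM it was 39.8, 40.7 and 40.1%, and in 1w BM 43.3, 40.6 and 43.6%. Later marrow stayed in a narrow band, with 41.9 and 41.4% in 3w BM, 41.7, 42.1 and 41.7% in 4w BM, 42.3, 43.3 and 43.8% in 6w BM and 40.9, 42.7 and 40.9% in 8w BM. Every E12.5 PL library lay above all others, and every FL library below every BM library.

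Between groups lay 86.0% of the spread of the 26 shares (permutation p = 1e-05, the smallest that 100000 resamples can give). The 17 BM libraries had a mean share of 41.8% ± 1.22 (SD, n = 17) and the 6 FL libraries 37.1% ± 1.93 (SD, n = 6). The difference was 4.68 points (two-sided exact permutation p = 1e-05, the smallest this test can give, adjusted over 11 comparisons 0.000109). This test, like that on called peaks below, took libraries as independent, though libraries of a group are not independent of their group. Its p is thus too small for a statement about groups, and no test with groups as the unit was run. Single groups of 3 cannot go below p = 0.1 in the exact permutation test. With that limit, the groups E12.5 FL (38.1% ± 1.2, SD, n = 3) and E12.5 PL (45.3% ± 1.70, SD, n = 3) did not overlap and differed by -7.25 points (exact p = 0.1, adjusted 0.22). Perinatal BM was 4.03 points above E16.5 FL, 8w BM 3.43 points above E12.5 FL and 6w BM 1.29 points above 4w BM, again without overlap (exact p = 0.1, adjusted 0.22 each). The other comparisons overlapped: E16.5 FL against E12.5 FL (-1.88 points), 1w against perinatal BM (2.27), 3w against 1w BM (-0.83), 4w against 3w BM (0.15, and -0.14 without 3w BM 2), 8w against 6w BM (-1.60) and 8w against 1w BM (-0.99), with exact p between 0.2 and 0.6.

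Most of the share lay at starts. There it was 36.7% ± 1.42 in E12.5 PL and 30.3% ± 0.929 in E12.5 FL (SD, n = 3 each). The other ends moved the other way, from 1.38% ± 0.0223 to 1.66% ± 0.0863 (SD, n = 3 each), without overlap. Counted as the share of called peaks, and not of counts, most of these differences turned: E12.5 FL stood 3.21 points above E12.5 PL, E16.5 FL 10.9 points above E12.5 FL, and the BM libraries 17.0 points below the FL libraries (permutation p = 2e-05). The libraries with few peaks, those of FL, held a larger part of their peaks at gene ends while a smaller part of their counts fell there.

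**Figure D1:**
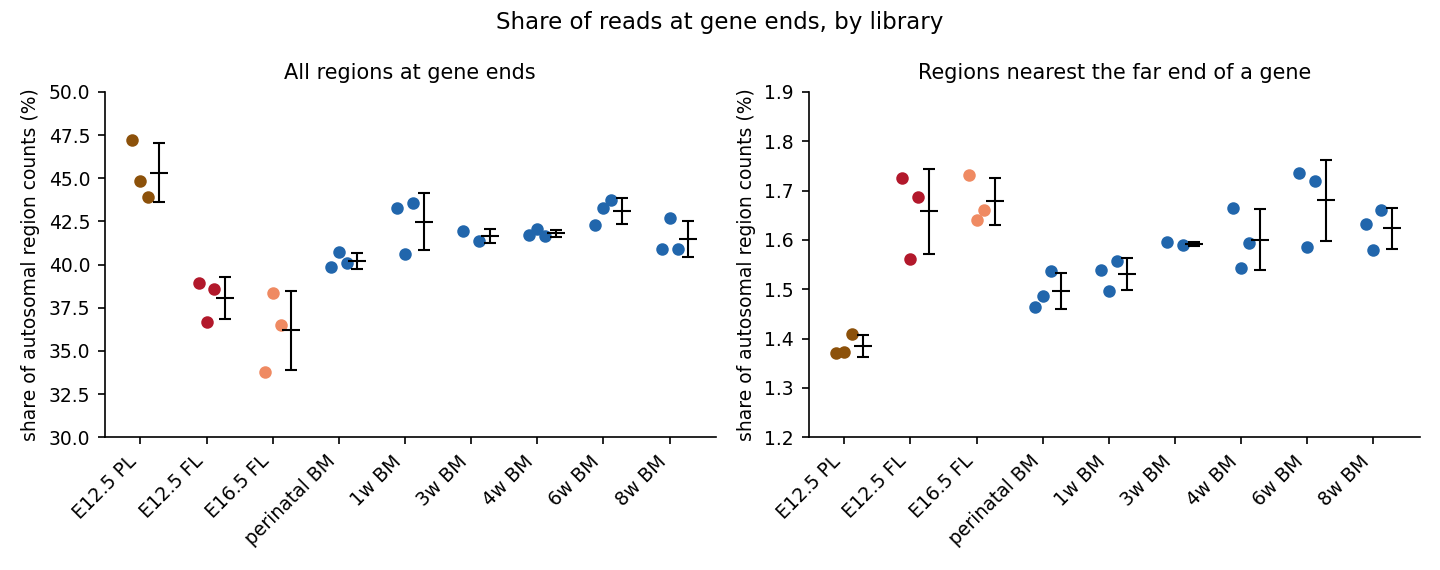
Share of autosomal counts at gene ends (left) and at the far ends of genes (right), in percent of the library's autosomal counts, for each of the 26 libraries by group; points are libraries and bars the group mean ± SD. On the left E12.5 PL lies between 43.9 and 47.2% and the FL libraries between 33.8 and 38.9%, below all BM libraries; the axes do not start at 0.

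When all 99005 tested regions were scaled together (trimmed mean of M values, TMM), gene-end regions as a class were lower in E12.5 FL than in E12.5 PL. Counts are relative to the scaling, and the class median was -0.17 with total counts alone. Of the 16155 gene-end regions that passed the filter on low counts (1 did not), 1601 (9.91%) were higher and 7335 (45.4%) lower in E12.5 FL by edgeR's quasi-likelihood test at a Benjamini-Hochberg adjusted p under 0.05. Over all regions the shares were 23.1% higher and 26.3% lower. The median log2 fold change was -0.46 at gene ends, -0.51 at starts, and 0.39 at the other ends, against 0.23 in gene bodies and 0.09 over all regions. Scaling by total counts alone gave 2524 higher among 6779 called, and cyclic loess, which removes trends with level, gave 1179 higher and 5098 lower, with a class median of -0.28.

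From E16.5 FL to perinatal BM the class moved up under this scaling. In perinatal BM 2474 gene-end regions (15.3%) were higher and 156 (0.966%) lower, against 6.63% and 1.37% of all regions, with a class median of 0.18. Starts had a median of 0.23 and other ends of -0.17. The direction flipped with cyclic loess, which gave 83 higher and 298 lower and a class median of -0.10, whereas total counts gave 1053 higher and 281 lower. The count also rested on single libraries, with 858 called without E16.5 FL 1, the library with the fewest peaks, and 1125 without perinatal BM 2.

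Across the whole span, 8w BM against E12.5 FL gave 3050 higher (18.9%) and 926 lower (5.73%) gene-end regions, beside 10.6% and 5.77% of all regions, with a class median of 0.13. Here too cyclic loess turned the balance, to 537 higher and 1583 lower with a median of -0.14, and total counts gave 1699 higher among 3271 with a median of -0.06. Without 8w BM 2, 2324 were called. E16.5 FL against E12.5 FL gave 0 higher and 0 lower gene-end regions by edgeR (0.00101% and 0% of all regions), with 1288 at an unadjusted p under 0.05 and 5 by DESeq2. 1w against perinatal BM gave 7 higher and 6 lower (0.0323% and 0.149% of all regions), with 0 called without 1w BM 1, 2 without perinatal BM 1 and 6 without perinatal BM 3. 8w against 1w BM gave 57 higher and 104 lower (0.641% and 0.638%), in all 67 without 8w BM 1, 91 without 8w BM 2, 87 without 8w BM 3 and 93 without 1w BM 1.

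Over the 9 groups together, 11374 gene-end regions (70.4%) differed in at least 1 group, beside 64.4% of all regions, and 6411 did so without E12.5 PL. Among starts 72.8% differed and among other ends 58.3%, an order that turned to 58.1% and 69.3% when scaling factors came from the gene-end regions alone.

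The move of the class differed with distance from the start, as did the level of the regions. In the 3117 regions within 200 bp before a start the median log2 fold change of FL against PL at E12.5 was -0.58, that of perinatal BM against E16.5 FL 0.36 and that of 8w BM against E12.5 FL 0.31. At 800 to 1000 bp after a start these were -0.26, 0.05 and -0.04, and at 800 to 1000 bp before it 0.06, -0.02 and -0.05. No such gradient appeared at the other ends, where the first comparison gave bin medians between 0.18 and 0.48. In the bins named at starts, median levels were 70.3, 30.5 and 19.8 CPM of the gene-end counts. Distance was not separated from level.

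**Figure D2:**
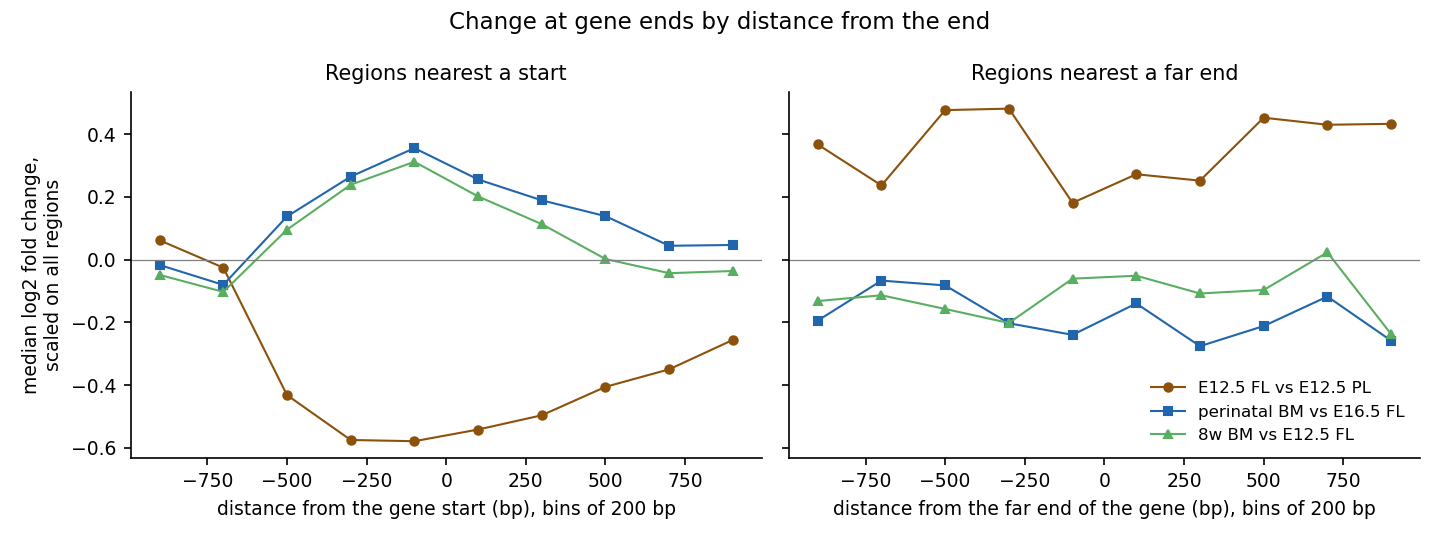
Median log2 fold change of gene-end regions in bins of 200 bp of distance (bp) from the gene start or the far end, scaled on all regions, for FL against PL at E12.5, perinatal BM against E16.5 FL and 8w BM against E12.5 FL. The lines for starts bend most in the 200 bp before the start, at -0.58, 0.36 and 0.31, and those for far ends show no bend there. The level of the regions also differs between the bins at starts.

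Regions of every class moved with their level in the later comparisons. In the highest level class, perinatal BM exceeded E16.5 FL by a median log2 of 0.43 at gene ends, 0.50 in gene bodies, 0.51 between genes and 0.62 with no gene nearby. In the same class 8w BM exceeded E12.5 FL by 0.41, 0.46 and 0.49 at gene ends, in gene bodies and between genes. In the classes below it gene ends lay lower than the others at matched level. In class 9 the medians of perinatal BM against E16.5 FL were 0.17 at gene ends, 0.42 in gene bodies and 0.38 between genes, and those of 8w BM against E12.5 FL 0.07, 0.35 and 0.35. In class 8 the latter were -0.12, 0.20 and 0.22. The gap was wider in FL against PL at E12.5, where in class 9 the median was -0.44 at gene ends, and 0.49 and 0.47 in gene bodies and between genes, and in class 10 -0.60, -0.28 and -0.03.

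**Figure D3:**
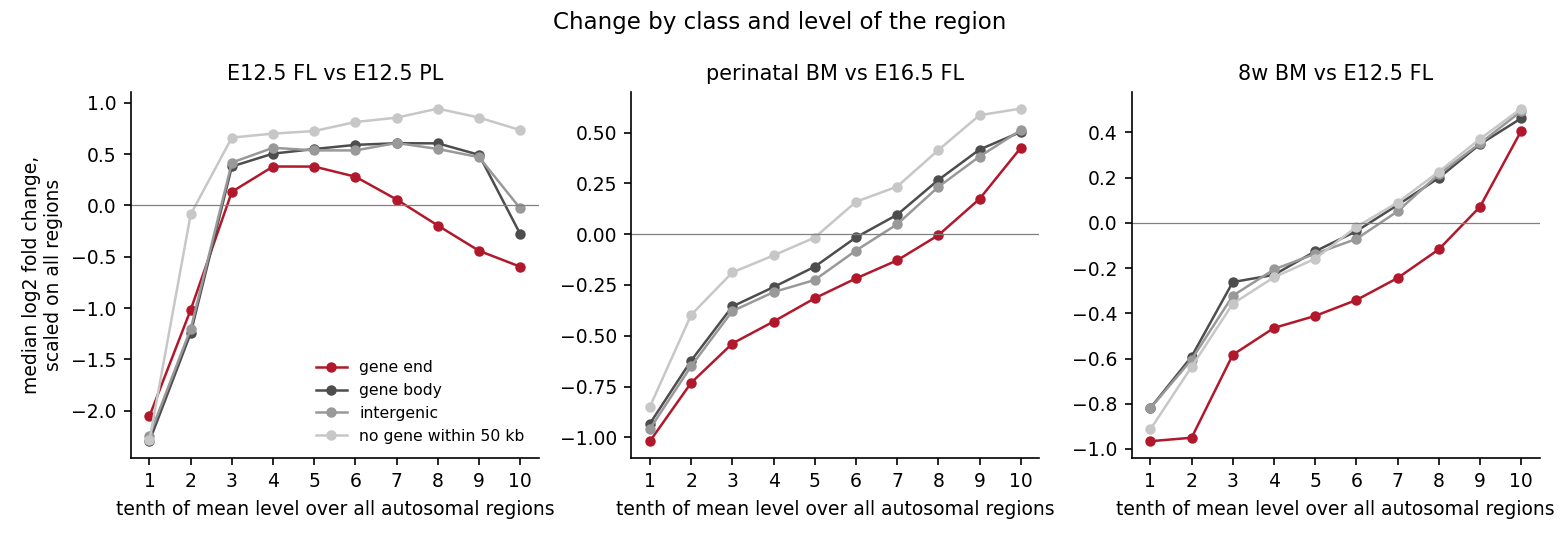
Median log2 fold change, scaled on all regions, by class of mean level (1 lowest, 10 highest) for gene-end, gene-body and intergenic regions and regions with no gene within 50 kb, in the same 3 comparisons. In class 9 gene ends lie below gene bodies in all 3 comparisons (-0.44 against 0.49, 0.17 against 0.42 and 0.07 against 0.35), and in class 10 they come close in the last 2 (0.43 against 0.50 and 0.41 against 0.46).

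To find genes that depart from the class, the fit was repeated with scaling factors taken from the gene-end regions alone, so that 0 is the trend of the class. All levels and log2 fold changes from here on are on this scale, levels in CPM of the gene-end counts. Against E12.5 PL, 3154 regions (19.5%) lay higher in E12.5 FL and 2917 (18.1%) lower, beside 36.4% and 15% of all regions on the same scale. Those higher were weak regions with large changes, with a median level of 23.3 and a median absolute log2 change of 1.27, and 69.3% of those with known strand were at starts. The lower ones were stronger with smaller changes, with a median level of 67.6, a change of 0.68 and 93.9% at starts. Scaling on the total of gene-end counts gave 3796 higher and 2121 lower.

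Of the named regions higher in E12.5 FL, that of Traf3ip3 had the smallest p. Traf3ip3, an adaptor gene of lymphocytes, has a region at chr1:193200896-193201875, 161 bp from its start. Its level was 13.1, 28 and 29.3 in the E12.5 PL libraries and 133, 161 and 130 in E12.5 FL, a log2 fold change of 2.58 ± 0.20 (SE, edgeR adjusted p = 4e-15). Runx3, a transcription factor of blood lineages, rose from 12.1, 11.7 and 20.4 to 94.2, 66.2 and 98.5 (2.55, adjusted p = 6e-14). Itgal, which encodes the integrin chain of LFA-1 on leukocytes, rose from 2.91, 11.7 and 6.96 to 67.2, 58.6 and 70.8 (log2 3.16). The naming rule took only regions whose groups did not overlap, so the gap between groups in these 3 genes is not a separate result.

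The other regions named in this direction had log2 fold changes between 2.12 and 2.75. They lie at Nckap1l, a regulator of actin in blood cells (2.75), Spi1, the gene of PU.1 (2.34), Ptafr, the receptor for platelet-activating factor (2.36), Pik3cg, a lipid kinase subunit of leukocytes (2.12), Zc3h12a, an RNase that limits inflammation (2.44), Slc35b4, a nucleotide sugar transporter (2.71), and Arhgef18 (2.50). The regions of Zc3h12a and Slc35b4 lie at the other end of the gene.

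Of the named regions higher in E12.5 PL, that of Atf3 had the smallest p. Atf3, a stress-induced transcription factor, had levels of 329, 352 and 306 in E12.5 PL and 67.2, 66.9 and 70.2 in E12.5 FL (log2 -2.27 ± 0.18, SE, adjusted p = 5.75e-15). Its groups lay apart, which the naming rule required. Ptpn14, a phosphatase of the Hippo pathway (-2.03), and Tead4, a transcription factor of the same pathway that is also needed in trophoblast (-2.17), were lower in E12.5 FL. So were Tbx3, a developmental T-box factor (-1.78), Klf9, a glucocorticoid-responsive factor (-1.50), Il6st, the gp130 receptor chain (-1.28), Arhgap5 (-1.50), Raph1, which acts on actin (-1.65), Bin1, which bends membranes (-1.72), and Lekr1 (-1.80).

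By gene list, more regions of blood lineage genes were higher than lower in E12.5 FL. Of all gene-end regions, 19.5% were higher and 18.1% lower on this scale. Most of these lists were weak, with median levels by gene of 33.5 (megakaryocyte), 18.4 (neutrophil and monocyte), 35.9 (stem surface) and 19.3 (lymphoid), against 44.3 over gene-end regions. Medians of all gene-end regions also differed with level, at 0.06, -0.20 and -0.60 in level classes 7, 8 and 10, scaled on all regions. The lists were not compared at matched level. Of 15 regions of megakaryocyte genes 12 were higher and 0 lower, with a median log2 of 1.34 beside -0.03 over all gene-end regions. Of 19 regions of neutrophil and monocyte genes 12 were higher and 1 lower (median 1.63), of 16 of stem and progenitor surface genes 9 and 1 (1.31), of 19 of stem cell transcription factors 9 and 1 (0.32), and of 18 of lymphoid genes 8 and 1 (0.84). Flt3, the receptor of a growth factor of early progenitors, rose from 30.5, 22.1 and 29.8 to 111, 101 and 92.4 (log2 1.89, adjusted p = 5.48e-11). Ptprc, which encodes CD45 of all white blood cells, rose from 4.84, 14.4 and 14.4 to 43.8, 49.0 and 47.2 (2.04, adjusted p = 1.1e-08). Runx1, a master factor of blood stem cells, rose from 7.75, 9.03 and 14.9 to 47.4, 34.5 and 44.5 (2.00), and Gfi1 and Lyl1, of the same list, by 1.86 and 1.29. Scaled on all regions, the counts became 8 higher and 3 lower for megakaryocyte, 12 and 3 for neutrophil and monocyte, 9 and 3 for stem surface, 8 and 3 for stem factor genes, whose median turned to -0.11, and 6 and 3 for lymphoid genes.

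More regions of stress genes were lower than higher in E12.5 FL, where 19.5% of all gene-end regions were higher and 18.1% lower on this scale. Of 25 regions of immediate early genes, which cells switch on within minutes of a stimulus, 12 were lower and 2 higher (median -0.40), and 19 and 1 when scaled on all regions. Klf4, a zinc finger factor, fell from 246, 195 and 178 to 92.4, 64.8 and 102 (log2 -1.25) and the start of Btg2 from 161, 135 and 167 to 70.8, 50.3 and 83.7 (-1.17), while Dusp2, a phosphatase of immune cells, rose by 1.16. Of 19 regions of heat shock and unfolded protein genes 9 were lower and 0 higher (median -0.31), and 18 and 0 scaled on all regions. Hspb1 fell from 75.5, 62.8 and 60.2 to 21.0, 17.2 and 17.5 (-1.82). The twin genes Hspa1a and Hspa1b fell by 1.33 and 1.43 on the log2 scale, and the split of reads between such near-identical copies is uncertain. Replication-dependent histone genes, also near-identical, gave 8 higher and 0 lower of 18 regions here but 0 and 3 scaled on all regions, so no direction is given for them. Ribosomal protein genes gave 2 higher and 3 lower of 29 (0 and 15 scaled on all regions).

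Markers of other cell types moved between these groups as well. Of 18 regions of endothelial genes 5 were lower in E12.5 FL and 3 higher, and their summed level was 605 to 1045 in E12.5 PL and 579 to 736 in E12.5 FL. Cdh5, the cadherin of endothelium, had a mean of 35.8 in E12.5 PL and 11.9 in E12.5 FL, and Sox7, an endothelial factor, fell by 1.88 on the log2 scale, whereas Esam, an adhesion molecule of endothelium and platelets, rose by 1.29. The 16 regions of stromal genes, of which 4 were higher and 3 lower (1 and 10 scaled on all regions), summed to 650 to 682 in E12.5 PL and 412 to 570 in E12.5 FL, and of its members Sparc, a matrix gene, fell by 2.37 and Fn1, fibronectin, by 0.97, while Thy1 rose by 1.85 and Runx2, a bone factor, by 1.35. Krt19, a keratin of trophoblast and other epithelia, had means of 19.96 and 4.59, while the 10 regions of trophoblast genes summed to 223 to 289 and 219 to 226, and the 8 of hepatocyte genes to 195 to 236 and 165 to 205. Neutrophil and monocyte regions summed to 431 to 464 in E12.5 PL and 670 to 721 in E12.5 FL. Many defining markers, among them Alb, Afp and Elf5, have no gene-end region here. The part of such cells in the difference between E12.5 PL and E12.5 FL was not tested.

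Departures differed with the CpG content of the promoter. Of 6344 CpG-rich starts 436 (6.87%) were higher and 1564 (24.7%) lower in E12.5 FL than in E12.5 PL, and of 2848 CpG-poor starts 860 (30.2%) and 363 (12.7%). The SD of the log2 fold change was 0.49 over CpG-rich and 0.95 over CpG-poor starts, and 48.0% and 19% lay under a peak in all 26 libraries. CpG-poor starts were also weaker, with a median level of 34.1 against 77.1. Among starts that rose by at least 1 on the log2 scale, 21.9% of 753 promoters were CpG-rich, 4.12% held an ETS motif and 21.9% a RUNX motif, against 69.0%, 16.7% and 12.2% of all start regions. Of CpG-poor starts alone, 9.55% held an ETS motif and 18.1% a RUNX motif, nearer to the values of this mostly CpG-poor set. Among those that fell as much, 62.6% of 356 were CpG-rich, 10.1% held an ETS motif and 11.2% an AP-1 motif, against 4.80% of all start regions for AP-1. Of the printed examples, Traf3ip3 and Runx3 are CpG-poor and Atf3 and Ptpn14 CpG-rich.

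From E16.5 FL to perinatal BM, 962 gene-end regions (5.95%) rose and 304 (1.88%) fell against the class, beside 2.57% and 1.92% of all regions. Scaling on the total of gene-end counts turned the balance to 431 and 616. The count was 213 without perinatal BM 2, 221 without E16.5 FL 1 and 834 without perinatal BM 1. The regions that rose were strong, with a median level of 140 and a peak in a median of 26 libraries, and 96.8% of those with strand were at starts, while those that fell had a median level of 21.3. Between E16.5 FL and E12.5 FL no region departed, 0 higher and 0 lower (0.00101% and 0% of all regions), with 978 at an unadjusted p under 0.05.

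Wfs1, which encodes a membrane protein of the endoplasmic reticulum, had levels of 84.5, 77.2 and 56.2 in E16.5 FL and 165, 177 and 142 in perinatal BM (log2 1.15 ± 0.16, SE, edgeR adjusted p = 4.33e-06). In E12.5 PL it stood at 170, 170 and 155, so the FL libraries were low on both sides. Skil, a repressor of TGF-beta signalling, rose by 1.44, Trp53i11, a p53-induced gene, by 1.14, Cmip by 1.02, Retreg1, a receptor for autophagy of the endoplasmic reticulum, by 1.13, and Adgra3, Triqk, Dym and Ldlrad4 by 1.12 to 1.41. Ldlrad4 lost its call without perinatal BM 2 (adjusted p = 0.0679). Ctla2b rose by 1.26, with reads that its copy Ctla2a may share.

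Of the regions that fell, Rac3, which encodes a small GTPase, lost 1.06 on the log2 scale and Slc2a4, the insulin-responsive glucose transporter, 1.01. Bmp7, a secreted growth factor (-1.40), Hoxc10, a homeobox gene (-1.18), Hnrnpa3, an RNA-binding protein (-1.51), Mto1, a mitochondrial tRNA modifier (-1.35), Zwilch, of the kinetochore (-1.16), and Rnf10, a ubiquitin ligase (-1.1), also fell. Zwilch and Rnf10 lost their calls when 1 library was left out. The regions at Lars2 (-1.14) and LOC100504180 (-1.16) are uncertain, since the end of Lars2 holds sequence like ribosomal RNA genes and LOC100504180 lies in a repeated array with Duxf3.

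Most lists had few calls in this comparison. Counted by gene, 4 of 20 replication-dependent histone genes fell and 0 rose (median -0.30), with the uncertainty of near-identical copies given above. Of 23 spliceosome and RNA processing genes 3 fell and 0 rose. Both counts are for this scale only, on which 1.88% of all gene-end regions fell. Of 19 heat shock and unfolded protein regions 4 rose and 0 fell, and of 25 immediate early regions 3 rose and 1 fell. These rises depended on scaling, since cyclic loess gave 0 and 1 for the former and 0 and 0 for the latter, and scaling on total gene-end counts 1 and 1 for each. Herpud1, of the unfolded protein response, rose from 82.9, 66.9 and 82.1 to 124, 119 and 134 (log2 0.70), and Nr4a2, a nuclear receptor, from 68.1, 55.8 and 62.7 to 95.0, 150 and 97.4 (0.89). Of 17 Hox regions 2 fell and 0 rose: the region shared by Hoxa5 and Hoxa6 went from 44.6, 62.0 and 57.6 to 27.6, 18.6 and 20.8 (-1.31), and that of Hoxb9 fell by 1.25. An AP-1 motif stood in 20.8% of the 24 promoters that rose by at least 1, against 4.80% of all start regions and 8.53% of CpG-poor ones, and 45.8% of the 24 were CpG-rich.

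Within marrow few regions departed. Between perinatal and 1w BM 2 rose and 8 fell (0.0152% and 0.199% of all regions), with 0 called without 1w BM 1, 2 without perinatal BM 1 and 6 without perinatal BM 3. Nr4a1, an immediate early nuclear receptor, rose from 40.6, 38.1 and 20.8 to 94.9, 78.0 and 58.8 (log2 1.2, edgeR adjusted p = 0.00652) at the other end of the gene. Edn2, which encodes an endothelin, rose by 1.17 at the edge of the threshold (adjusted p = 0.049984). The regions of Duxf3 (-1.54) and LOC100504180 (-1.15) fell, in the repeated array named above. Edn2 and LOC100504180 lost their calls whichever of the 6 libraries was left out, and Nr4a1 and Duxf3 in 2 of 6 cases. Edn2 also missed the threshold with 2 other scalings (adjusted p of 0.0521 and 0.0517), and LOC100504180 when scaled on all regions (0.101).

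From 1w to 8w BM 72 rose and 64 fell (0.808% and 0.431% of all regions), in all 67 without 8w BM 1, 85 without 8w BM 2, 82 without 8w BM 3 and 80 without 1w BM 1. Igf2bp3, an RNA-binding protein of the fetal program, had the smallest p of those that fell, with 64.8, 57.1 and 71.6 in 1w BM and 8.72, 3.48 and 13.6 in 8w BM (log2 -2.99 ± 0.28, SE, adjusted p = 9e-11). Rgs1, a regulator of G-protein signalling in leukocytes, rose from 206, 114 and 109 to 573, 424 and 425 (1.72). Tspoap1 rose from 101, 63.5 and 91.0 to 395, 309 and 414 (2.10), in a region 1.44 kb from the microRNA gene Mir142, a microRNA of blood cells, so its gene cannot be told. Actb, the cytoskeletal actin (2.89), Btg2, an anti-proliferative gene, at its other end (1.77), and H2-Q7, a class I gene with near-identical copies (1.55), also rose. Stc2, a secreted glycoprotein (-1.02), and Dym (-1.12), which had risen at birth, fell.

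Over the full span from E12.5 FL to 8w BM, 1916 regions (11.9%) rose and 1412 (8.74%) fell against the class, beside 7.13% and 7.99% of all regions. Scaling on the total of gene-end counts gave 1048 and 2324, and 1874 were called without 8w BM 2 and 2202 without E12.5 FL 1. As before, those that rose were strong (median level 125) and those that fell weak (19.7). This comparison shares its libraries with the earlier ones, and its values stand beside them and not as a separate test.

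Most regions of immediate early genes were higher in 8w BM. Of 25 regions 17 rose and 0 fell (median log2 0.58), 22 and 0 scaled on all regions, 10 and 0 scaled on total gene-end counts, and 9 and 1 by cyclic loess. Nr4a1 rose from 15, 22.8 and 14.8 to 141, 126 and 165 (log2 3.04, adjusted p = 4.68e-13), and Zfp36, an RNA-destabilising protein, from 67.2, 55.9 and 78.9 to 221, 187 and 295 (1.79). Jun and Junb, subunits of AP-1, rose by 0.87 and 1.13, and the region of Egr1 586 bp from a gene end by 3.21. The summed level of the list had means of 3513 in E12.5 PL, 2601 in E12.5 FL, 2804 in E16.5 FL, 3358 in perinatal BM and 3837 in 1w BM, and then 3823, 3887, 5252 and 4202 in 3w, 4w, 6w and 8w BM. Fetal liver was thus lowest and 6w BM highest. An AP-1 motif stood in 16.9% of the 83 promoters that rose by at least 1, of which 37.3% were CpG-rich, against 4.80% of all start regions and 8.53% of CpG-poor ones.

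Of 19 heat shock and unfolded protein regions 9 rose and 0 fell, but cyclic loess gave 2 and 1. Hsp90b1, a chaperone of the endoplasmic reticulum, rose from 166, 173 and 200 to 326, 294 and 311 (log2 0.79). Of 19 interferon response regions 6 rose and 1 fell, but cyclic loess gave 2 and 1. Other genes named for their rise were Rgs1 (2.88), Bhlhe40, a circadian and immune repressor (1.82), Slc12a3, a salt transporter (1.53), Ski (1.31) and a second region of Skil (1.12), repressors of TGF-beta signalling, Chad, a matrix protein (1.71), Tspoap1 (1.91) and Ctla2a (2.65), which shares reads with its copy.

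Of 17 regions of the fetal program 8 were lower in 8w BM than in E12.5 FL and 0 higher, with a median log2 of -0.79, and 7 and 0 scaled on all regions. Igf2bp3 fell from 89.99, 70.3 and 83.0 to 8.72, 3.48 and 13.6 (-3.31, adjusted p = 5.3e-13), and Igf2bp1, a related RNA-binding protein, from 44.4, 29.0 and 47.9 to 1.03, 4.25 and 6.23 (-3.39). Lin28b, the repressor of let-7 microRNAs, fell from 91.2, 58.6 and 82.3 to 27.2, 34.0 and 37.4 (-1.24, adjusted p = 0.000132), and Hmga2, a chromatin protein of fetal stem cells, by 0.89. Of 17 Hox regions 5 fell and 0 rose, the shared region of Hoxa5 and Hoxa6 from 52.2, 26.9 and 51.3 to 7.18, 13.1 and 14.2 (-1.91). On this scale 11.9% of all gene-end regions rose and 8.74% fell. Counted by gene, the Hox list had a median log2 of -0.40 and a low median level of 17.8. Weak gene-end regions in general also stood lower, with medians of -0.24 in level class 7 and 0.41 in class 10, scaled on all regions. The Hox regions were not compared at matched level. Further falls named were Lrrc7 (-2.36), Cecr2, a chromatin remodeller subunit (-1.92), Xkr4 (-1.67), Evl, an actin regulator (-1.45), Asxl3, a Polycomb-related gene (-1.32), Iqsec1 (-1.26) and Stc2 (-1.72).

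The time courses of these genes differed. Igf2bp3 had group means of 91.4, 81.1, 70.8, 65.0 and 64.5 from E12.5 PL through 1w BM, then 32.4, 25.1, 5.90 and 8.60 from 3w to 8w BM, so its fall lay after the first week. Rgs1 ran 15.4, 64.4, 59.2, 83.9, 143, 356, 225, 597 and 474 over the same groups, and its libraries overlapped between neighbouring late stages. The same region of Egr1 was high at both edges, with 53.4 in E12.5 PL, 13.5 to 15.8 through perinatal BM, and 252 and 126 in 6w and 8w BM. Runx3 stood at 14.7 in E12.5 PL, 81.4 to 112 in FL and perinatal BM and 144 to 175 later. Kit did not pass the test over groups, with means of 48.4 to 69.0 (edgeR adjusted p = 0.41).

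**Figure D4:**
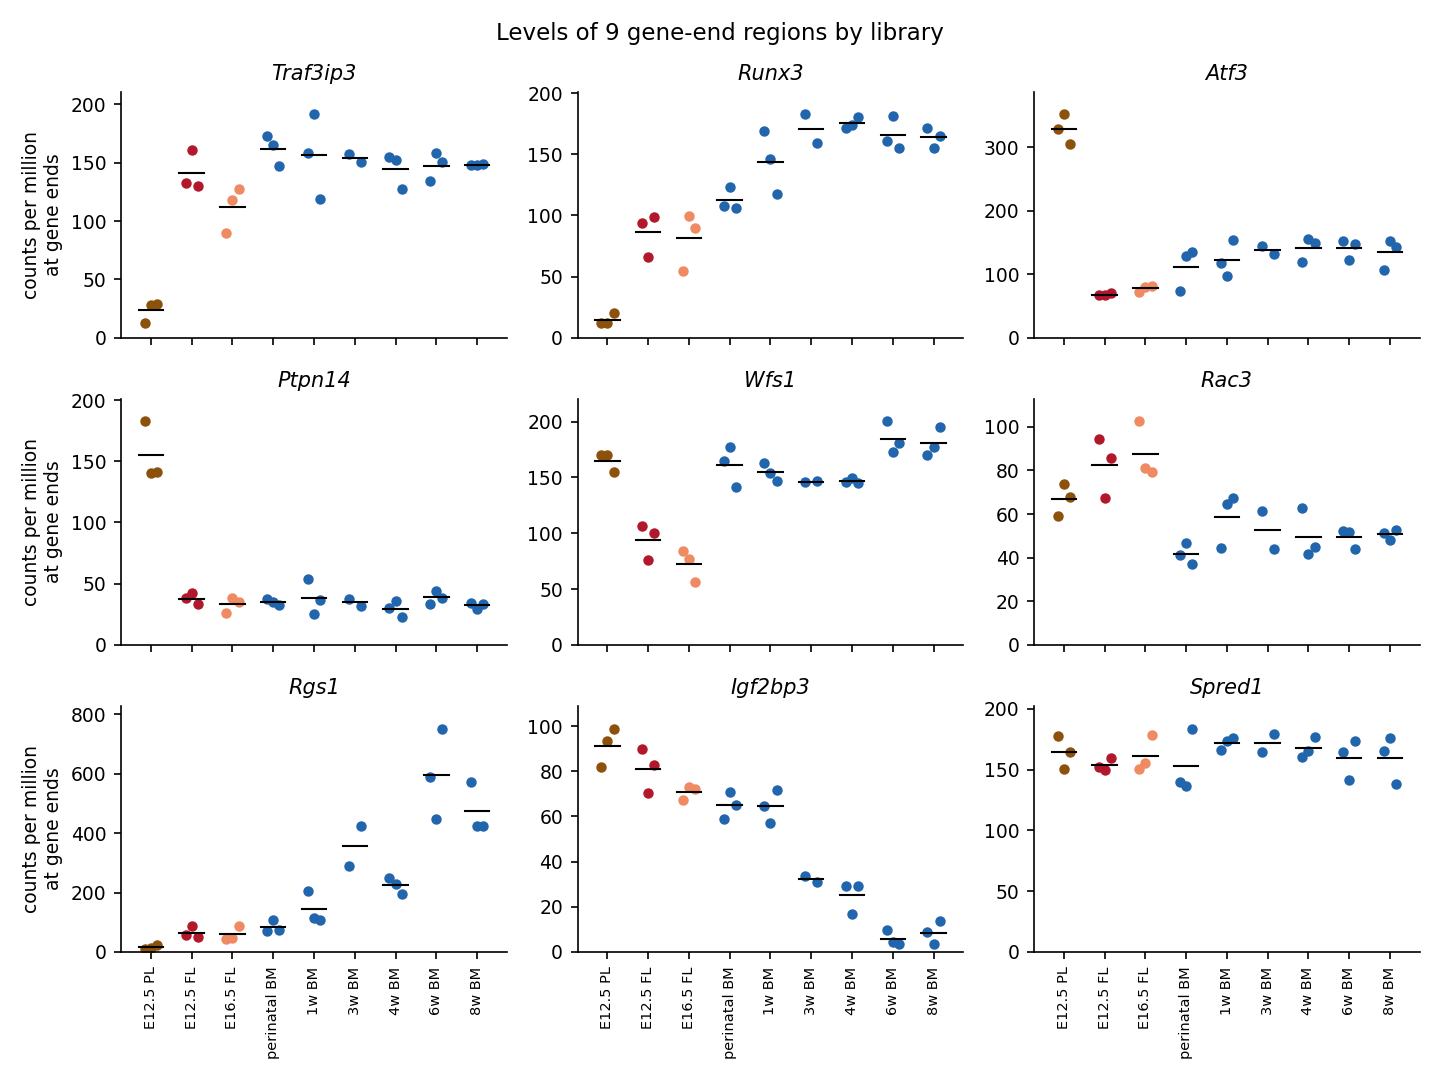
Level in CPM of the gene-end counts of 9 gene-end regions in each of the 26 libraries by group; points are libraries and bars the group mean. Traf3ip3 and Runx3 are lowest and Atf3 and Ptpn14 highest in E12.5 PL, Igf2bp3 drops after 1w BM from a mean of 64.5 to 8.60 in 8w BM, and Spred1 lies between 136 and 184 in every library.

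Over the 9 groups 9663 gene-end regions (59.8%) departed from the class in at least 1 group, beside 68.6% of all regions on the same scale, and 8631 of them were also called when all regions were scaled together. Of those 9663, the highest mean stood in E12.5 PL for 30.7%, in 6w BM for 17.4% and in E16.5 FL for 13.7%, and the lowest in E12.5 PL for 28.5% and in E16.5 FL for 19.4%. The 10 regions of smallest p over the groups were at Rgs1, Tspoap1, Nr4a1, Ctla2a, Runx3, Igf2bp3, Ctla2b, Zc3h12a, Egr1 and Slc12a3, with ranges of group means between 2.56 and 5.25 on the log2 scale. The range of group means over all gene-end regions had a median of 0.85 on the log2 scale, with 2610 regions (16.2%) under 0.5 and 1780 (11%) over 2. The steadiest in the top 10% of levels were U2af2, a splicing factor (range 0.16), Spred1, an inhibitor of Ras signalling (0.18), Gpbp1l1 (0.18), Nubp2, of iron-sulphur assembly (0.21), and Zc3h4 (0.21). Spred1 had levels between 136 and 184 in all 26 libraries.

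The start and the other end of a gene were compared where both had a region. In 1135 genes with a gene-end region at each end, the start had the higher level in 82.0%, with medians of 57.5 and 13.2. The log2 fold changes of the 2 ends correlated at 0.13 in FL against PL at E12.5 over these genes, as a description. Where both ends were called, in 235 genes, 121 moved the same way and 114 opposite ways. In 8w BM against E12.5 FL 31 of 42 moved the same way.

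**Figure D5:**
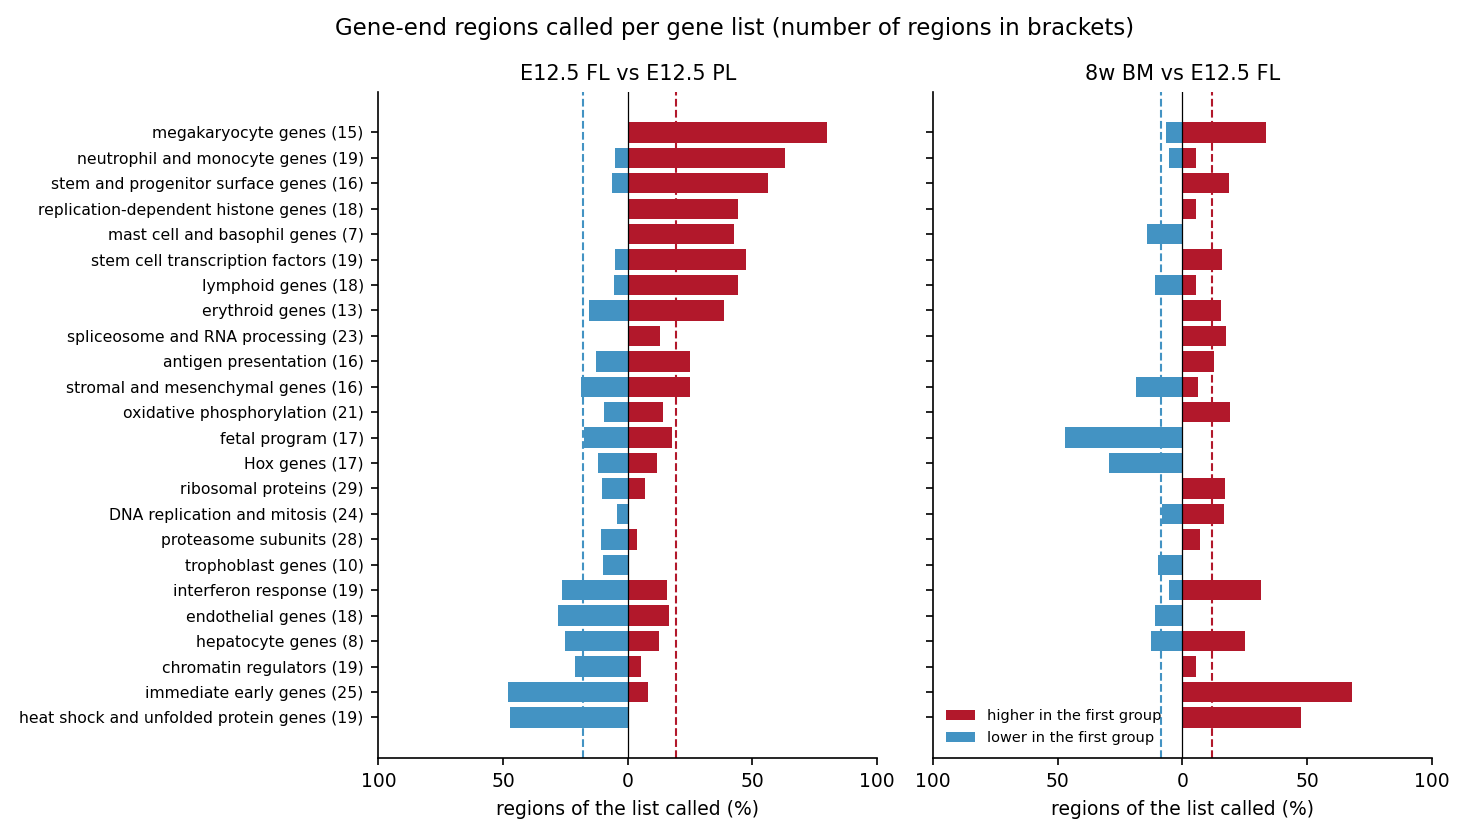
Percent of the regions of each gene list called higher or lower against the class in FL against PL at E12.5 and in 8w BM against E12.5 FL; dashed lines mark the percent of all gene-end regions called. Megakaryocyte genes (12 of 15) and neutrophil and monocyte genes (12 of 19) stand above the line for higher in the first comparison, and immediate early genes (17 of 25) in the second.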

How the data were processed

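ATAC-seq libraries of LSK cells were used in 26 developmental samples, grouped by sample title; 6 cultured libraries were not analysed here. The deposited table holds raw counts per region, whole numbers with no scaling, per the file headers and values. The deposited peak lists, called per library by the authors, give fold enrichment (a ratio), -log10 p-value, -log10 q-value and a display score for each peak; only positions and fold enrichment were used. The submitters' processing notes list MACS2, HOMER, DiffBind, Trim Galore and deepTools, with build mm10. Aligner, Tn5 shift and duplicate removal, which could all change the counts, are not given in the sources used here.

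Gene spans came from the RefSeq table of assembly GRCm38.p6 and strand from the RefSeq promoter table. Regions with few counts were removed with filterByExpr (minimum count 10), scaled by TMM over all regions or over gene ends alone, and compared in edgeR 4.0.16 (R 4.3.3) by quasi-likelihood tests with 1 mean per group over 26 libraries and Benjamini-Hochberg adjustment over all regions tested. Levels are CPM of the gene-end counts. Shares were compared by two-sided exact permutation tests, and over all 9 groups together by 100000 resamples. The scripts were checked on simulated data. Alternatives used DESeq2 1.42.0 and limma 3.58.1; tables and figures used matplotlib 3.10.9, SciPy 1.17.1, pandas 2.3.3 and numpy 2.4.6 under Python 3.11.15. Within groups no library was a repeat deposit of another: chi-square per region ran from 2.14 to 5.10. Pairs from different groups were not compared in this way.

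Named regions passed an adjusted p of 0.05 with a log2 fold change of 1 or more in size, a level at or above the median and no overlap of groups; of these the 10 of smallest p per direction, or 5 within marrow, are given, predicted genes left out. Added to them are the 10 of smallest p over all groups, the 5 steadiest in the top 10% of levels, at most 4 called members per list, and Kit, Ptprc, Ly6a, Alb, Lin28b, Hmga2 and Igf2bp3 always. Members, lists and rules were chosen with earlier results of these data known.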

Additional observations from a re-analysis of the deposited data

How the results depend on the processing

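Of 72 named regions, 64 kept their direction and call under every alternative run, and none reversed. They were chosen from these same libraries for small p, large change and no overlap. That choice favours keeping a call, so the 64 say little about gene-end regions at large. Without 1 library Duxf3, Edn2, LOC100504180 and Nr4a1 (1w against perinatal BM) lost their calls. So did LOC100504180, Ldlrad4, Rnf10 and Zwilch (perinatal BM against E16.5 FL). Of these, 2, Edn2 and LOC100504180 in the first comparison, also did so under other scalings. Of the differences in share, 7 reversed when peaks took the place of counts: 3.21 points for FL against PL at E12.5, 10.9 for E16.5 against E12.5 FL, -17.3 for perinatal BM against E16.5 FL, -6.90 for 1w against perinatal BM, -0.993 for 6w against 4w BM, -13.4 for 8w BM against E12.5 FL and -17.0 for marrow against fetal liver; the cause was not tested. Leaving out 3w BM 2 reversed 4w against 3w BM (-0.14 to 0.434 over libraries left out).

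Counts called moved by over 1.5 times as follows, the cause not tested unless fewer samples or tests are named. For 1w against perinatal BM they were 8 with a 500 bp window, 5 with DESeq2, 7 with loess and 0 to 14 without 1 library. For 8w against 1w BM they were 67 to 124 without 1 library. For 8w BM against E12.5 FL they were 2120 with loess and 2324 to 3707 without 1 library. For E16.5 against E12.5 FL they were 5 with DESeq2 and 0 to 2 without 1 library. Over any group, 6411 were called without E12.5 PL, an alternative chosen after seeing the data, and 10414 to 11464 without 1 library. For perinatal BM against E16.5 FL they were 1334 with total counts, 381 with loess, 1266 with gene-end TMM, 1249 with the compared groups alone and 858 to 2699 without 1 library. Against the class trend, leaving out 1 library gave 0 to 11 for 1w against perinatal BM, 67 to 107 for 8w against 1w BM, 1874 to 2886 for 8w BM against E12.5 FL, 0 to 2 for E16.5 against E12.5 FL and 213 to 1327 for perinatal BM against E16.5 FL.

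Replicate numbers were not taken as pairs, since in no comparison did every same-numbered pair correlate above 0.1 (-0.0965 to 0.296). For 16 of 26 libraries the closest library outside their own group bore their own number. This is a hint of pairing from the data and not from the labels. How many would match without pairing was not tested. The replicate block gave 9050 called for FL against PL at E12.5, 2748 for perinatal BM against E16.5 FL, 4111 for 8w BM against E12.5 FL and 11522 over any group, and against the class 16 for 1w against perinatal BM and 1 for E16.5 against E12.5 FL. The median of all regions shifted from 0.09 to 0.52 (log2) in FL against PL at E12.5 between scaling on all regions and on gene ends. Depth limits weak regions: 0.0124 to 0.91% of gene-end regions had 0 counts in a library.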
